A study of Mus musculus with 9 samples.

Results

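Whole embryonic pancreas from mutants of Blinc1, which encodes a long noncoding RNA, was compared between 2 sides of 3 libraries each that cross genotype. The 6 libraries, 3 heterozygous and 3 knockout by their labels, are 6 of the 9 of the study. Side A holds heterozygote replicate 2 and knockout replicates 2 and 3, and side B holds heterozygote replicates 1 and 3 and knockout replicate 1. The sides were selected on the measured expression values themselves, by which libraries resembled each other, and not by any label. Every contrast between them is therefore given as a description with no test. The values that chose the sides are those of all genes, and no gene is independent of the choice.

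The study profiled dissected pancreas of mouse embryos at e15.5 on a mixed C57BL/6 and 129Sv background, which all groups share, in 3 wild-type (Blinc1+/+), 3 heterozygous (Blinc1+/-) and 3 knockout (Blinc1-/-) libraries. The labels do not say how the allele was made, how many embryos went into a library, or whether libraries came from separate litters, so the spread between libraries may be technical. Expression is in FPKM, fragments scaled to transcript length and to all mapped fragments, so levels of different genes are comparable per length. Differences are means of log2(FPKM + 1) on side A minus side B, a scale on which the change of a low gene appears too small.

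The pancreas at this stage is building its acinar cells, which make digestive enzymes in a large rough endoplasmic reticulum, beside duct and trunk epithelium and the first endocrine cells. The epithelium lies in mesenchyme that lays down collagen and elastic fibres, and vessels and immune cells run through it. Neural crest cells enter it and form glia and neurons. Sympathetic neurons, whose cell bodies lie in ganglia outside the organ, make noradrenaline with tyrosine hydroxylase (Th) and dopamine beta-hydroxylase (Dbh). In bulk tissue, fewer cells of a type and less RNA per cell cannot be told apart.

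Values of a side are given in the order heterozygote 2, knockout 2 and knockout 3 for side A and heterozygote 1, heterozygote 3 and knockout 1 for side B. Wild types are given in the order of their replicate numbers. Each side had 1 male and 2 female libraries by sex-linked genes, side A had 1 heterozygote and 2 knockouts, and side B the reverse. Implied depth was 19532984 to 23535897 fragments per library on side A and 20206143 to 25437255 on side B. The pancreas genes Pdx1 (37.3, 36.9 and 36.7 against 38.7, 30.97 and 33.9 FPKM) and Ptf1a (101, 118 and 103 against 92.2, 83.9 and 85.2 FPKM) were present in all 6 libraries. Nkx2-2, an islet transcription factor gene next to Blinc1, was at 18.99, 6.08 and 5.48 FPKM on side A and 6.37, 13.4 and 24.9 FPKM on side B. The library labelled heterozygote 1 was thus level with knockouts 2 and 3, and the library labelled knockout 1 was level with heterozygote 2 and with the wild types (15.2, 21.7 and 25.5 FPKM). Nkx2-2 is not the targeted gene and does not check the labels, and genotypes below are those of the labels. Whether the labels of heterozygote 1 and knockout 1 are crossed was not tested, and every value given by genotype depends on them.

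A total of 13052 genes reached 1 FPKM in at least 3 of the 6 libraries and were used. At the edge of this filter, the third highest value of Gm15708 was 1.0003 FPKM and that of Nrn1, just outside, was 0.9997 FPKM. The first principal component of the 6 libraries held 40.8% of their variance and separated the sides. Pearson correlations across genes were 0.988 to 0.991 between libraries of the same side and 0.983 to 0.989 between libraries of different sides. These ranges overlap.

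All 3 libraries of side A were above all 3 of side B at 749 genes, 5.74% of those used, and below them at 2405 genes, 18.4%. Since the sides were chosen on these values, nothing is read from either share. The balance depends on scaling: higher genes were 23.7% of the separated genes as deposited, 53.5% (1813 against 1573) after centring each library on its median and 53.7% (1794 against 1547) after quantile normalization. With a mean difference of at least 0.5 required as well, 33 genes were higher on side A (0.253%) and 373 were lower (2.86%). Higher genes were then 8.13% of the total, against 14.2% after median centring and 18.9% after quantile normalization. Of the 13052 genes, 95 passed the filter only through side B and 8 only through side A, which adds to the lower genes. The median difference over all 13052 genes was -0.03. Of the 373 lower genes, 38 belong to a neuronal or glial list, counting lists written after the leading genes had been seen. The list of neurons, neural crest and glia, 1 of the 33 lists of cell type and function genes examined, held 26 of the 373. It has 36 members among the 13052 genes. Of the lower genes, 319 belong to none of the 33 lists. Of the 33 higher genes, 4 belong to a list of exocrine genes.

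Neuronal genes gave the widest separation. Among genes averaging 5 FPKM or more, the 12 with the largest gap below side B held 10 neuronal genes, Eln and Ngfr. Dbh (chr2:27021027-27038724 on mm9), the last enzyme of noradrenaline synthesis, was at 0.0387, 0.0184 and 0.0926 FPKM on side A and 26.3, 9.32 and 18.3 FPKM on side B. The side A libraries held 1 to 4 implied fragments of Dbh each, and the side B libraries 416 to 1135. Th (chr7:150078681-150085871), the rate-limiting enzyme of catecholamine synthesis, was at 1.78, 1.52 and 1.85 FPKM against 25.3, 6.87 and 19.6 FPKM, a difference of -2.58 (SE 0.53 from the spread within sides, n = 3 and 3). For both genes the order on side B was heterozygote 1, knockout 1, heterozygote 3, and the sides did not overlap. Wild types were at 1.05, 5.06 and 0.864 FPKM for Dbh and 2.24, 7.76 and 2.73 FPKM for Th, so wild type 2 stood near heterozygote 3 and the other two lay lower.

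The 250 bases before the start of Th are shown because this gene is among those with the widest separation and its start carries a cAMP response element. The sequence is from RefSeq on GRCm38.p6 (chr7:142899996-142900245, minus strand), a different build from that of the deposited coordinates, and the capitals mark the element TGACGTCA, which begins 45 bases before the start.
Th: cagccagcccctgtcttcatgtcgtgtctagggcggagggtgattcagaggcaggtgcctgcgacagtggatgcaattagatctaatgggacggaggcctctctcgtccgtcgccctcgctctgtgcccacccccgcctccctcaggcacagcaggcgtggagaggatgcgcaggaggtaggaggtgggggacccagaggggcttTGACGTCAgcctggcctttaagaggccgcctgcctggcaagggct
This motif, which reads the same on both strands, was found in 1.77% of 27025 promoter windows of the same length. Among 11 noradrenergic genes with a window, Th alone had it. The match describes these letters only.

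The same pattern held for genes that mark sympathetic-type neurons. Slc6a2, the noradrenaline transporter, was at 0.0138, 0.00655 and 0 FPKM on side A and 4.82, 1.24 and 4.09 FPKM on side B. Gata3, a transcription factor of sympathetic neurons, was at 0.402, 0.216 and 0.2401 against 2.95, 1.43 and 2.37 FPKM. Both genes were lower in every library of side A. Npy, a peptide of sympathetic neurons and of early islet cells, was at 38.7, 14.7 and 15.97 against 131, 56.7 and 101 FPKM. Ddc and Ret, which pancreatic endocrine cells or neural crest cells also express, overlapped between the sides (76.3, 88.5 and 76.1 against 86.02, 80.2 and 81.4 FPKM for Ddc). In a list of 19 noradrenergic genes, written after the leading genes had been seen, 17 passed the filter, 5 of them only through side B. Of the 17, 15 were lower on side A without overlap and 0 were higher, against 18.4% and 5.74% of all genes. This list was built on the pattern and does not support it.

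Genes of the neuronal cytoskeleton, which neurons of any kind express, separated likewise. Stmn2 (chr3:8509527-8561604), a microtubule regulator of growing axons, was at 18.3, 22.7 and 23.1 FPKM on side A and 101, 60.9 and 82.5 FPKM on side B, a mean of 3.81 times as much. Tubb3, neuronal beta-tubulin, was at 14.4, 14.2 and 14.6 against 88.7, 34.5 and 68.9 FPKM. Prph, the intermediate filament of peripheral neurons, was at 6.73, 5.999 and 7.59 against 52.4, 18.2 and 40.2 FPKM. Side A was even across its 3 libraries at all 3 genes, whereas heterozygote 1 and knockout 1 exceeded heterozygote 3 on side B. Nefl (-2.32), Nefm (-1.85), Uchl1 (-1.65), Stmn3 (-2.14) and Rtn1 (-2.18), also neuronal, had differences of similar size.

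**Figure D1:**
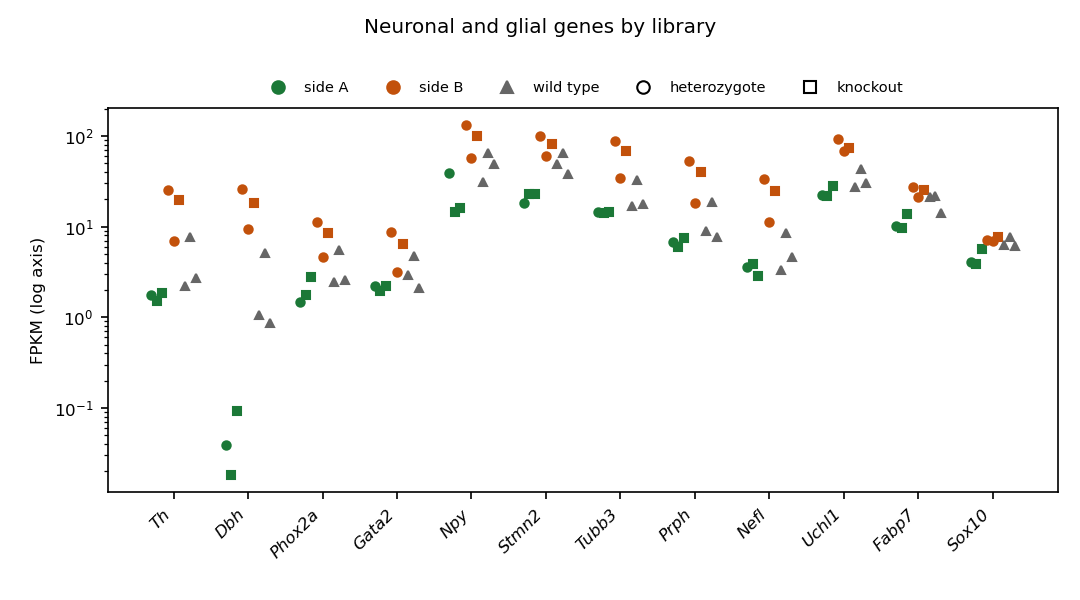
FPKM (log axis) of neuronal, sympathetic and glial genes in each library; green marks side A, orange side B, grey triangles wild type, circles heterozygotes and squares knockouts. Dbh is at 26.3 FPKM in heterozygote 1 and below 0.1 FPKM in all side A libraries, and wild types lie between the sides at most genes.

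Of 38 listed genes of neurons, neural crest and glia, 36 passed the filter, 3 of them only through side B. Of these, 28 were lower on side A without overlap and none was higher, against 18.4% and 5.74% of all genes. The median difference was -1.08 against -0.03 over all genes. Heterozygote 1 was the highest library of side B at 21 of the 28 genes, and heterozygote 3 was the lowest at 26. The wild-type mean lay between the means of the 2 sides at all 28. All 3 wild types were above all of side A at 17 of them and below all of side B at 10. The contrast was present in each genotype: the list median was -1.09 within heterozygotes and -1.02 within knockouts. Both of these differences entered the choice of the sides.

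Glial genes separated less. Ngfr, the low-affinity neurotrophin receptor of neural crest and Schwann cells, was at 5.85, 5.42 and 6.999 FPKM on side A and 18.02, 14.6 and 14.7 FPKM on side B. Fabp7, a fatty acid binding protein of glial precursors, was at 10.1, 9.69 and 13.7 against 27.1, 20.98 and 25.4 FPKM. Sox10, the transcription factor of neural crest and glia, was at 4.11, 3.89 and 5.604 against 7.11, 6.98 and 7.67 FPKM (-0.59). The sides did not overlap at these genes, but every side A library kept glial transcripts, and side B libraries were within a narrower range than at neuronal genes. Wild types overlapped side B at Sox10 (6.33, 7.65 and 6.17 FPKM) and Fabp7 (21.2, 21.9 and 14.1 FPKM).

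Markers of other neurons and of the adrenal gland, which could reach a dissection together with sympathetic tissue, were low. Chat, the enzyme of acetylcholine synthesis, did not exceed 0.0554 FPKM in any library. Vip, a peptide of enteric neurons, was at 1.03, 1.64 and 1.700 against 2.17, 1.47 and 1.28 FPKM and overlapped. Cyp17a1 of the adrenal cortex was listed at 0 in all but knockout 2 (0.0466 FPKM), and Pnmt, which makes adrenaline in chromaffin cells, was at 0.415 FPKM in heterozygote 1 and listed at 0 in the other 5. Cyp11a1, which starts steroid synthesis, was at 1.51, 2.33 and 2.44 against 2.26, 1.03 and 1.35 FPKM and overlapped. Star, which carries cholesterol into mitochondria for steroid synthesis, was at 0.882, 0.807 and 0.9899 against 1.25, 1.02 and 1.14 FPKM and 1.16, 1.12 and 1.01 FPKM in wild types, lower on side A without overlap and passing the filter only through side B. Apart from Star, these markers were named after their values had been seen. Whether ganglia outside the pancreas were included in some dissections was not tested.

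Elastic fibre genes came next. Eln (chr5:135178466-135223124), which encodes elastin, was at 63.01, 65.3 and 75.6 FPKM on side A and 286, 152 and 161 FPKM on side B, a mean of 2.94 times as much (difference -1.49, SE 0.30). Mfap4 (chr11:61298946-61302206), a microfibril-associated protein, was at 46.3, 47.7 and 52.3 against 101, 92.5 and 92.6 FPKM. Fbln5, which organises elastic fibres, was at 7.28, 7.33 and 9.25 against 25.5, 16.1 and 17.8 FPKM. All 3 genes were lower in every side A library, with heterozygote 1 the highest of side B. Wild types were at 154, 229 and 126 FPKM for Eln and 99.4, 106 and 85.6 FPKM for Mfap4, above all of side A. A list of 19 elastic fibre genes was also written after Eln had been seen. Of its 18 members that passed, 14 were lower on side A and none was higher, against 18.4% and 5.74% of all genes. All 3 wild types exceeded all of side A at each of these 14 genes.

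**Figure D2:**
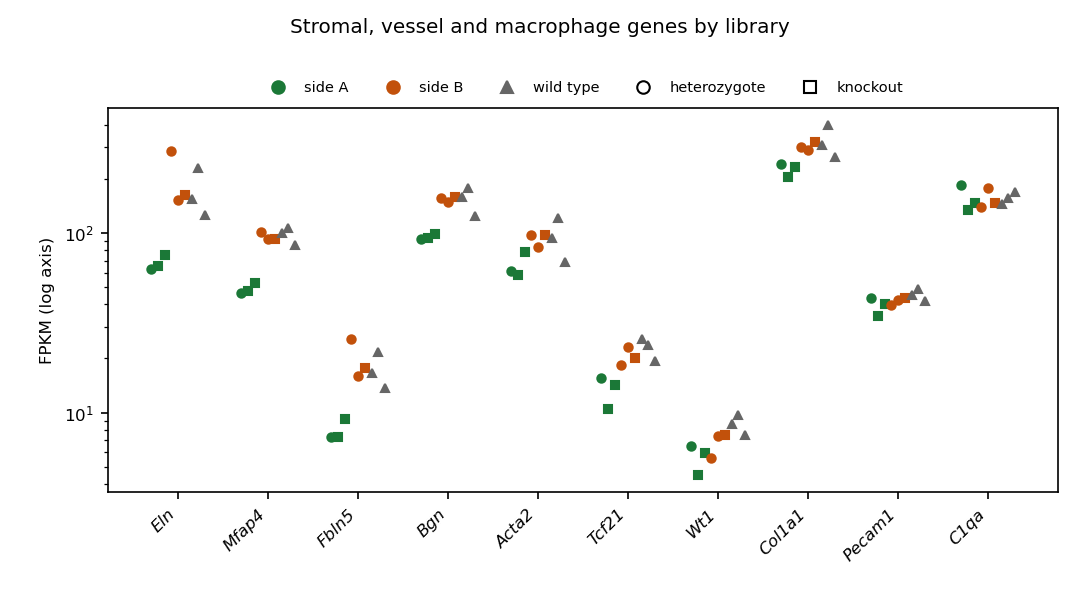
FPKM (log axis) of stromal, vessel and macrophage genes in each library, with the symbols of the plot of neuronal genes. Side A is lowest at Eln (63.0 to 75.6 FPKM) and Mfap4, wild types lie in or near the range of side B, and C1qa and Pecam1 overlap between the sides.

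Mesenchymal and collagen genes showed smaller differences in the same direction. Tcf21, a transcription factor of pancreatic mesenchyme, was at 15.6, 10.4 and 14.2 FPKM on side A and 18.3, 23.1 and 20.2 FPKM on side B. Col1a1, the main fibrillar collagen chain, was at 240.1, 204 and 233 against 300.2, 291 and 319 FPKM (-0.43, SE 0.08). Col8a2, a short-chain collagen, was at 7.43, 7.07 and 6.91 against 11.7, 13.4 and 12.7 FPKM, with side A in a narrow range. Knockout 2 was the lowest library at Tcf21 and Col1a1 but not at Col8a2. Of 44 mesenchyme genes that passed, 23 were lower on side A without overlap and none higher (median -0.29), as were 15 of 31 collagens (median -0.25), against 18.4% of all genes. In smooth muscle and pericytes 11 of 17 were lower (median -0.39), among them Tagln (30.2, 36.9 and 39.8 against 58.97, 49.2 and 51.9 FPKM), an actin-binding protein. Of 12 mesothelial genes none separated, and Wt1, a mesothelial transcription factor, overlapped (6.54, 4.52 and 5.92 against 5.599, 7.41 and 7.52 FPKM).

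The wild-type mean exceeded both sides' means at 16 of the 23 separated mesenchyme genes and lay between them at the other 7. It exceeded both at 14 of the 15 collagens. All 3 wild types were above all of side A at 20 and 15 of them. For Col1a1 the wild types were at 307, 396 and 265 FPKM, and for Dcn, a small proteoglycan of connective tissue, at 339, 403 and 268 FPKM against 218, 215 and 239.7 FPKM on side A and 297, 299.7 and 309 FPKM on side B. Of the 11 smooth muscle and pericyte genes, by contrast, the wild-type mean lay between the sides at 6 and above both at 5.

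Vessel and immune genes were lower on side A at some members. Over all genes 18.4% were lower without overlap and 5.74% higher. In endothelium 12 of 32 genes were lower without overlap (median -0.13), including Flt4, the lymphatic VEGF receptor (4.42, 3.16 and 3.71 against 6.18, 5.36 and 4.84 FPKM). Pecam1, a general endothelial adhesion molecule, overlapped (43.1, 34.3 and 40.05 against 39.5, 42.4 and 43.6 FPKM). Among immune genes 11 of 25 were lower and 1 higher (median -0.28). C1qb, a complement subunit of macrophages, was at 25.9, 21.4 and 26.2 against 35.1, 36.99 and 32.1 FPKM, and the receptor gene Cd14 was the 1 that was higher (3.65, 3.38 and 3.89 against 2.96, 2.94 and 2.67 FPKM). C1qa overlapped (185, 134 and 146 against 139, 177 and 147 FPKM), so members of the same complement complex did not order the libraries alike.

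**Figure D3:**
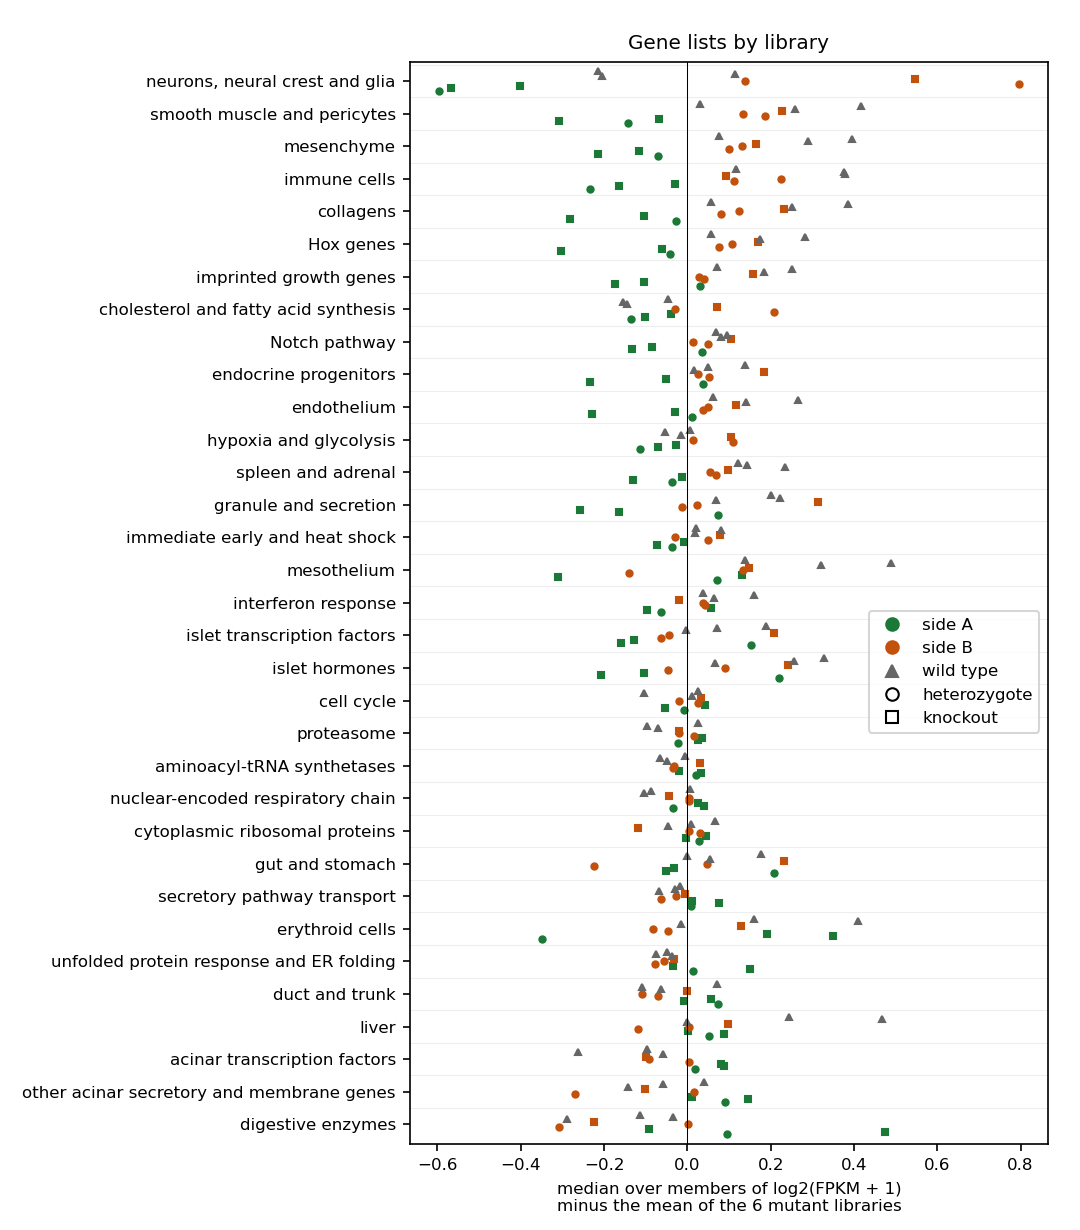
Median over list members of log2(FPKM + 1) minus the mean of the 6 mutant libraries, for each list and library; symbols as in the plot of neuronal genes. The neuron list spreads widest, side A lies lowest in the smooth muscle, mesenchyme and collagen lists, and digestive enzymes run the other way with knockout 3 among side B libraries.

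Acinar genes were higher on side A by small amounts. Cpb1 (chr3:20149383-20174651), the zymogen of carboxypeptidase B, was at 1274, 1386 and 1500.2 FPKM on side A and 721, 1139.6 and 704 FPKM on side B (0.73, SE 0.24). Try4 (chr6:41252271-41255532), a trypsinogen whose reads near-identical paralogs may share, was at 381, 524 and 373 against 309, 356 and 237 FPKM. At both genes all of side A exceeded all of side B, but heterozygote 3 was close to side A. Clps, the cofactor of pancreatic lipase, was at 17547, 23337 and 18119.5 against 14814, 16784 and 12218 FPKM.

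The promoters of Cpb1 and Try4 are shown because acinar genes are known targets of basic helix-loop-helix factors such as Ptf1a, which bind E-boxes. Both windows hold the E-box CAGGTG, in capitals, 94 bases before the start of Cpb1 (chr3:20275734-20275983, minus strand) and 96 before that of Try4 (chr6:41302022-41302271, plus strand), in RefSeq on GRCm38.p6.
Cpb1: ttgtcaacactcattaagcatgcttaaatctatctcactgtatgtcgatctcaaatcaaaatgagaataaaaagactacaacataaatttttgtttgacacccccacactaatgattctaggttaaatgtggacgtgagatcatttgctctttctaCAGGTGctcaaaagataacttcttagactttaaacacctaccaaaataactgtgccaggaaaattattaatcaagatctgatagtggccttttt
Try4: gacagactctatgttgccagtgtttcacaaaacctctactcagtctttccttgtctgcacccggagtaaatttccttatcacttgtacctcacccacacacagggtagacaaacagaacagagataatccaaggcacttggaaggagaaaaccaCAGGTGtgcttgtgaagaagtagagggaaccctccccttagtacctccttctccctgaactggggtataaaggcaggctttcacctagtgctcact
The pattern CANCTG, with N any base, covers only part of the E-boxes. Searched on both strands, it was in 20 of 26 digestive enzyme windows (76.9%), in 48.2% of all 27025 windows and in 3 of 11 noradrenergic windows. CAGGTG matches it when read on the other strand, and a match is no evidence of binding.

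Of 36 listed digestive enzyme genes 26 passed the filter, and 6 of these were higher on side A without overlap, none lower and 20 overlapping. The shares over all genes were 5.74% higher and 18.4% lower. The median of the enzyme list was 0.39, and 0.19 without knockout 2. Library levels of this list overlapped between the sides, at 0.10, 0.47 and -0.09 on the log2 scale for side A and -0.31, 0.00 and -0.22 for side B, and knockout 2 stood well above the others. Erp27, an acinar endoplasmic reticulum protein (chr6:136855908-136870701), was at 274, 276 and 278 against 183, 212 and 170.3 FPKM (0.56, SE 0.09), the clearest of the acinar genes. Spink3, a trypsin inhibitor, was at 2079.6, 2099 and 2009 against 1807, 1938 and 1595 FPKM. Ptf1a differed by 0.30, and Bhlha15, which shapes the secretory machinery of acinar cells, was at 144, 162 and 148 against 127, 138 and 129 FPKM. Gata4 (64.2, 69.4 and 67.2 against 62.96, 56.5 and 58.6 FPKM) and Nr5a2 (39.7, 44.6 and 40.5 against 39.6, 35.6 and 36.8 FPKM), also acinar regulators, were higher on side A by margins close to the spread, and Gata6 was lower (22.1, 21.2 and 22.3 against 23.2, 24.1 and 25.7 FPKM). Cpa1, carboxypeptidase A1, overlapped (9947, 11632 and 9157 against 9462, 9155 and 7457 FPKM). Wild types lay below all of side A at all 6 separated enzyme genes, for example 1100.1, 939 and 777 FPKM for Cpb1.

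**Figure D4:**
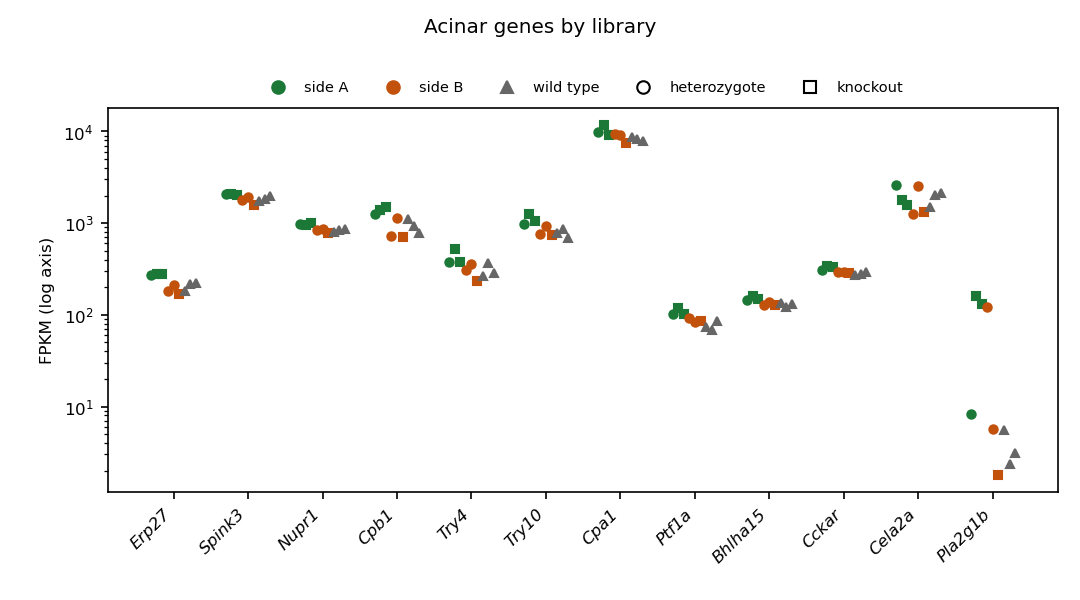
FPKM (log axis) of acinar genes in each library, with the symbols of the plot of neuronal genes. Erp27 and Cpb1 are highest in the 3 side A libraries, the wild types lie nearer side B at both, and Pla2g1b does not follow the sides.

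Estimates of 4 pancreatic enzyme symbols failed for excess data in some of the 6 libraries and were treated as missing. Ctrb1, chymotrypsinogen B, was missing in all 3 side A libraries and in heterozygote 3, and was at 57865 FPKM in heterozygote 1 and 48638 FPKM in knockout 1. Ctrb1 therefore gives no comparison of the sides. Amy2a5, a pancreatic amylase gene, was missing only in knockout 2, and its values of 15385 FPKM in heterozygote 2 and 14614 FPKM in knockout 3 lay within the range of side B (13120 to 16034 FPKM). Pla2g1b, the pancreatic phospholipase A2, did not follow the sides: it was at 8.29, 162 and 129.7 FPKM on side A and 122, 5.66 and 1.81 FPKM on side B, high in knockouts 2 and 3 and heterozygote 1 and low in the other 3 and in the wild types (5.54, 2.35 and 3.09 FPKM).

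Genes of the secretory machinery were slightly higher on side A. Of 30 genes of the unfolded protein response and folding in the endoplasmic reticulum, 9 were higher without overlap and 1 lower (median 0.09), and of 51 genes of secretory transport 16 were higher and 2 lower (median 0.06). Over all genes 5.74% were higher and 18.4% lower. Edem1, which extracts misfolded glycoproteins, was at 81.4, 105 and 93.1 against 63.6, 69.97 and 73.7 FPKM. Sec11c, a signal peptidase subunit, was at 109, 119 and 110.5 against 84.5, 101 and 92.6 FPKM. Ddit3, a stress-induced transcription factor, was lower on side A (7.22, 8.94 and 9.08 against 9.54, 10.4 and 10.98 FPKM). The chaperone Hspa5 was at 837, 926 and 787 against 772, 762 and 819 FPKM and overlapped, so these genes did not move as 1 block. Without knockout 2 the median of the folding genes was 0.05.

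Duct and trunk genes separated at 4 of 23, all higher on side A (median 0.10, and 0.16 without knockout 1). Krt18, an epithelial keratin, was at 468, 451 and 452 FPKM against 389.9, 408 and 408 FPKM. Muc1, an apical mucin, was at 118, 115 and 133 against 102, 111 and 88.7 FPKM. Sox9, the factor of trunk progenitors, overlapped (28.8, 25.7 and 26.3 against 22.9, 26.3 and 25.9 FPKM). Cell cycle genes mostly overlapped: of 45 cell cycle genes 1 was higher and 4 lower on side A, against 5.74% and 18.4% of all genes. Of 77 cytoplasmic ribosomal protein genes 6 were higher and 1 lower, and the median of 0.05 was 0.007 without knockout 1 and 0.07 without heterozygote 1 or 3. The share of higher ribosomal genes is near the 5.74% of all genes.

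Endocrine genes cut across the sides. Ins1, an insulin gene, was at 606, 235 and 233 FPKM on side A and 315, 481 and 627 FPKM on side B. Sst, the delta cell hormone, was at 201, 422 and 455 against 375, 174 and 151 FPKM. Neurog3, the factor that starts endocrine differentiation, was at 65.3, 41.3 and 44.4 against 48.3, 60.6 and 68.6 FPKM. At Ins1 heterozygote 1 was low with knockouts 2 and 3, and at Sst it was high with them, the same grouping as at Nkx2-2. Within heterozygotes Ins1 was higher on side A by 0.64, and within knockouts the difference was -1.42. Of 13 islet hormones 2 were higher and 2 lower on side A, the latter Npy and Cck, against 5.74% and 18.4% of all genes. Ppy, the pancreatic polypeptide gene, was at 43.3, 63.3 and 65.1 against 43.1, 31.6 and 20.97 FPKM, with heterozygote 1 almost level with heterozygote 2. The medians of the islet hormone and islet transcription factor lists changed sign with median centring and with single libraries left out, and no direction is given for them. Over all 13052 genes, 2504 (19.2%) ordered every library in opposite directions in the 2 genotypes.

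Granule and secretion genes, which endocrine cells and neurons share, were lower on side A at 11 of 36 and higher at 1, against 18.4% and 5.74% of all genes. Syt4, a synaptotagmin of vesicle release, was at 0.579, 0.394 and 0.457 against 4.25, 1.96 and 4.004 FPKM and was the 1 member that passed the filter only through side B. Snap25, the SNARE of nerve terminals and islet cells, was at 2.56, 2.53 and 1.78 against 8.02, 3.84 and 6.06 FPKM. Kcnj11, a subunit of the beta cell potassium channel, was the gene that was higher (19.7, 20.4 and 21.6 against 18.2, 15.3 and 17.5 FPKM). Chga, a granule protein of both cell types, overlapped (109, 62.3 and 51.5 against 60.7, 84.9 and 104 FPKM). Syt4 and Snap25 followed the order of the neuronal genes on side B, and so did Kcnj11, within a narrow range.

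Hox genes, which record position along the body axis, were lower on side A at 6 of 17 that passed the filter, against 18.4% of all genes. Of the 17, 3 passed only through side B, Hoxc8 and Hoxc6 among them. A gene that passed in this way is lower on side A without overlap by construction. Hoxc8 (chr15:102820970-102824685) was at 0.0558, 0.141 and 0.0222 FPKM on side A and 2.47, 1.74 and 1.37 FPKM on side B, with wild types at 0.843, 1.28 and 0.617 FPKM. Hoxc6 was at 0.577, 0.466 and 0.483 against 1.24, 1.603 and 1.52 FPKM, and Hoxc4 at 2.08, 1.48 and 2.402 against 2.78, 3.45 and 3.32 FPKM. All 3 genes were lower in each side A library, at low levels. Of other clusters, Hoxb3 was also lower in each side A library, and Hoxa5 overlapped (9.12, 7.34 and 8.75 against 8.73, 9.44 and 8.94 FPKM).

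Metabolic lists were lower on side A at some members. Of 33 hypoxia and glycolysis genes 15 were lower and none higher, including Hk1, a hexokinase (5.55, 5.06 and 6.08 against 9.03, 8.29 and 9.42 FPKM), and the glucose transporter Slc2a1 (34.3, 32.96 and 36.8 against 47.7, 39.8 and 47.4 FPKM). Of 29 genes of cholesterol and fatty acid synthesis 10 were lower and none higher, including Scd1, a fatty acid desaturase (2.000, 1.78 and 2.65 against 6.14, 3.497 and 5.09 FPKM). Heterozygote 1 was the highest of side B at 20 of the 33 and 24 of the 29. The wild-type mean lay below both sides' means at 17 of the 29, between them at 11 and above both at 1. At the 33 it lay between them at 16, below both at 12 and above both at 5. All 3 wild types were below all of side B at 14 of the 29 and 4 of the 33. In the Notch pathway 7 of 23 were lower, against 18.4% of all genes, with Hey2, a vascular target of the pathway, at 3.25, 3.43 and 3.597 against 5.24, 4.86 and 6.61 FPKM.

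A few genes outside these groups were higher on side A. Rec8, a cohesin subunit of meiosis, was at 19.4, 7.71 and 13.03 FPKM on side A and 2.18, 2.59 and 2.19 FPKM on side B, and wild types were between at 5.97, 5.398 and 5.79 FPKM. Gm12191, a predicted gene, was at 5.601, 26.9 and 1.38 FPKM on side A, from 4 to 118 implied fragments, and did not exceed 0.00665 FPKM in any library of side B, so it passed the filter only through side A. Its locus (chr15:34370261-34372988) overlaps that of Rpl30, a ribosomal protein gene (chr15:34370263-34373031), with which it may share reads. Agr2, a disulfide isomerase of mucus-producing epithelium, was at 19.3, 18.9 and 16.7 against 10.1, 12.2 and 12.5 FPKM, with wild types overlapping both sides (13.7, 18.4 and 20.8 FPKM). Odc1, the first enzyme of polyamine synthesis, was at 115, 94.1 and 98.4 against 76.6, 71.6 and 77.9 FPKM. Hbb-b2, an adult beta-globin, was at 129.9, 35.4 and 47.3 against 20.6, 14.1 and 21.4 FPKM, but near-identical globin genes may share its reads, and Hba-a1, an alpha-globin, overlapped (1988, 5322 and 4801 against 3757, 3281 and 3801 FPKM). Of 14 erythroid genes 1 was higher, 1 lower and 12 overlapping, against 5.74% higher and 18.4% lower over all genes. Nothing more is read from these erythroid counts.

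**Figure D5:**
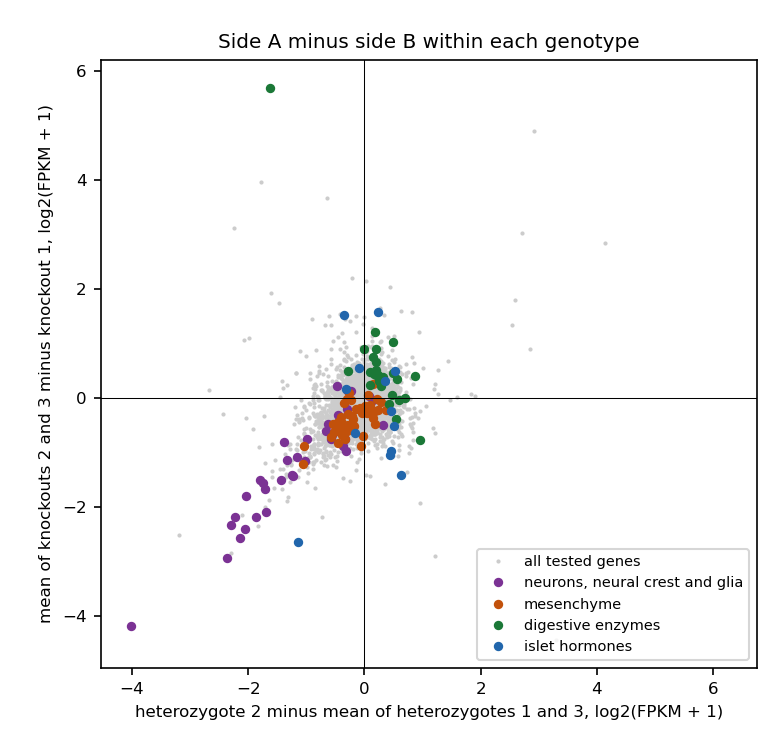
Difference between the sides within heterozygotes (x axis) against that within knockouts (y axis), both on log2(FPKM + 1), 1 point per gene; grey marks all 13052 genes and colours mark 4 lists. Most neuronal genes (purple) and mesenchymal genes (orange) are below 0 on both axes, most digestive enzymes (green) are above 0 on both, and the green point at the upper left is Pla2g1b.

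Within each genotype, 24 of the 33 lists had medians of the same sign. Both differences entered the choice of the sides, which favoured such agreement. The exceptions included islet hormones (0.35 within heterozygotes and -0.24 within knockouts) and granule genes (0.16 and -0.51). Digestive enzymes were at 0.25 and 0.43, mesenchyme at -0.22 and -0.36. Wild types were nearer side B than side A in 25 of the 33 lists. The list with the widest separation, neurons, neural crest and glia, was an exception. Its levels were -0.21, 0.11 and -0.21 in wild types, -0.60, -0.57 and -0.40 on side A and 0.80, 0.14 and 0.55 on side B. Wild types were also nearer side A in the hypoxia and glycolysis list and in the cholesterol and fatty acid synthesis list.

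The digestive enzyme list mean minus the mesenchyme list mean, the acinar minus mesenchyme difference, gave 1 number per library. The enzyme list includes Pla2g1b, which did not follow the sides. The difference was 4.25, 4.88 and 4.13 on side A, 3.73, 3.85 and 3.55 on side B and 3.53, 3.57 and 3.72 in wild types, on the log2 scale. Side A was higher in every library, with knockout 2 the farthest. Outside both lists, the genes whose level followed it most closely over the 9 libraries were Tmed2 (Pearson r 0.99), Serp1 (0.98) and Sep15 (0.98). Synpo, a gene of actin filaments, and Dvl2 and Neurl4 followed it inversely (-0.99 each). Tmed2, a cargo receptor between endoplasmic reticulum and Golgi, was at 351, 386 and 339.9 against 322, 330.0 and 320.2 FPKM, and Dvl2, a Wnt signal relay, at 13.7, 11.4 and 13.6 against 15.4, 14.9 and 15.9 FPKM. These are small changes in level that followed the order of the libraries closely. The 9 points share 1 scaling to total fragments, in which acinar genes hold a large share.

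The labelled genotypes, which were not chosen on the data, gave no called gene among the 6 libraries. With limma on log2(FPKM + 1) in all 9 libraries, 0 of 13052 genes (0%) passed an adjusted p of 0.05 between knockout and heterozygote. At an unadjusted p under 0.05 there were 285 genes, and voom on implied fragments called 0 with 272. Th differed by -0.65 (SE 0.94) and Dbh by -1.26 (SE 1.34) between these genotypes, Eln by -0.59 (SE 0.52) and Cpb1 by 0.16 (SE 0.30), each with a limma adjusted p of 0.9998. Without the library labelled knockout 1, limma called 4 genes, all higher in knockouts, without the library labelled heterozygote 1 it called 1, and without both, an alternative chosen after seeing the data, it called 4 higher (Sst, Pla2g1b, Gm3383 and Gm8348) and 1 lower (Cyp2c70). With 3 libraries against 3, a permutation test cannot go below p = 0.1.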

How the data were processed

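RNA from whole e15.5 pancreas was sequenced in 9 libraries, and the FPKM values with confidence bounds were deposited by the authors, per the file headers. Alignment to mm9 used TopHat 2.0.4 (4 mismatches, at most 10 hits), per the series design text. The submitters' processing notes also name CASAVA 1.8.2, Cufflinks and DESeq. Annotation and strand setting: not given in the sources used here.

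FPKM of the 248 symbols with several of 23699 loci were summed. Values marked HIDATA were set missing, which removed 4 symbols. Genes at 1 FPKM or more in 3 of the 6 libraries were kept, with a pseudocount of 1. Implied fragments were computed from the upper bound, taken as 2 standard errors above the FPKM. Between sides, counts of genes without overlap, medians and differences were computed with no test. Knockout against heterozygote used limma 3.58.1 (R 4.3.3, trend, 9 libraries, Benjamini-Hochberg 0.05). The count and the fit were tested on simulated data.

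The sides, the 33 lists and the rules were chosen with earlier results of these data known, and 7 more lists were written after the leading genes had been seen. Named genes are the 12 with the largest gap in each direction, up to 4 members per list in the main direction and 2 in the other, core pancreas genes, genes with missing values and the 6 most like the acinar minus mesenchyme difference. Some genes that the rule names are not reported here. Others, such as Ddc, Vip and Hoxa5, were named after their values had been seen. Alternatives were pseudocount, filter, scaling, threshold, covariates and left-out libraries.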

Additional observations from a re-analysis of the deposited data

Results flagged for a closer look

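Some lists and genes differed between the sides in opposite directions in the 2 genotypes, with every side A library above every side B library in one genotype and below in the other. The values below are the side A minus side B difference within heterozygotes minus that within knockouts, on the log2(FPKM + 1) scale. These differences were not tested, and over all genes 19.2% showed such opposite order.

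Islet lists and genes are given first. The core genes examined hold many islet genes, so nothing is read from their number among those flagged. The value was 0.59 for the islet hormone list, 0.59 for islet transcription factors and 0.68 for granule and secretion genes. Among named genes it was 2.89 for Nkx2-2, 2.06 for Ins1, 1.43 for Ins2, 0.69 for Gcg (glucagon), 1.48 for Ghrl (ghrelin), 1.46 for Chga and 0.94 for Neurog3. In each of these genes heterozygote 1 was the lowest heterozygote and knockout 1 the highest knockout.

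Outside the islet genes, the value was 0.54 for the gut and stomach list, -0.22 for erythroid genes, -0.12 for the nuclear-encoded respiratory chain and -0.10 for the proteasome. It was -1.23 for Hba-a1, 0.30 for C1qa and 0.30 for Pecam1. At Hba-a1 heterozygote 2 was the lowest of all 9 libraries.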

How the results depend on the processing

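Differences were recomputed for the genes with the largest gaps, the core pancreas genes and those most like the acinar minus mesenchyme difference. They stayed within the spread between replicates 667 times and moved beyond it 7 times, and list medians 530 and 72 times. Genes named only through a list were not recomputed singly. No reversal was marked, and a list could be marked only where its median exceeded the spread within sides. Granule and secretion genes fell short of that (median -0.13, spread 0.17), and their median was 0.16 within heterozygotes. The adrenal list gave no value with a filter of 5 FPKM. The 33 genes higher on side A became 18 with a filter of 5 FPKM, 56 with quantile normalization, 6 with a minimum difference of 1 and 749 with none, and 40 to 70 with single libraries left out, where non-overlap is easier to reach. The 373 lower genes became 603 with a pseudocount of 0.1, 168 with a filter of 5 FPKM, 241 with quantile normalization, 74 with a minimum of 1 and 2405 with none, and 332 to 500 with single libraries left out. Without neuronal and glial lists, an alternative chosen after seeing the data, the genes lower on side A numbered 335. The cause of the other changes was not tested. Knockout against heterozygote gave 0 to 4 genes with single libraries left out: 1 lower without heterozygote 1 (Cyp2c70), 1 higher without heterozygote 2 (Rps19) and 4 higher without knockout 1. Without both libraries numbered 1, an alternative also chosen after seeing the data, it gave 5 genes (852 unadjusted). With the title's number as a replicate block it gave 0 genes (313 unadjusted). Deviations from the genotype mean correlated at 0.25, 0.28 and 0.04 between same-numbered heterozygotes and knockouts. Between differently numbered ones they correlated at -0.34 to 0.13. Both mutants numbered 1 are on side B and both numbered 2 on side A, while those numbered 3 are split. Whether the numbers mark pairs or batches was not tested, and they were not taken as pairs. Sequencing depth limits genes near 1 FPKM, where few fragments were counted.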
